A study of Mus musculus with 6 samples.

Results

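Expression of autophagy and lysosome genes was followed in mouse intestinal epithelial cells with and without caspase-8. The set was given as 35 gene symbols, and each gene was read from the brightest probe set paired with that gene alone, by its mean over the 6 arrays. Of the 35 genes, 34 were measured, among 18193 genes on the array: 24 that build or load the autophagosome, 9 of the lysosome, and the transcription factor gene Tfeb. Optn, a cargo receptor gene, was not analysed here. The 3 control mice were C57BL/6 animals that carried the floxed casp8 gene and were villinCre negative. The 3 deleted mice, of the same strain and with the same floxed gene, were villinCre positive, so both groups share the floxed allele. Villin drives Cre in gut epithelium, and other cells in a preparation keep an intact gene. Ages and the stretch of gut sampled were not given in the labels. Each array was made from 2 µg of total RNA of 1 animal, and the values are log2 expression, so that a difference of 1 is a 2-fold change.

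In autophagy a membrane closes around part of the cytoplasm and fuses with the lysosome, where acid hydrolases degrade the contents. The ULK kinase complex starts the process, a PI3-kinase complex with Beclin 1 marks the membrane with the lipid PI3P, and a conjugation system joins proteins of the Atg8 family (the LC3 and GABARAP proteins) to it. Cargo receptors link ubiquitin-tagged material to these proteins, and the factor TFEB switches on many genes of the lysosome. In the gut, Paneth cells need Atg16l1, Atg5 and Atg7 for normal secretory granules, and p62, the product of Sqstm1, can also act as a scaffold for caspase-8.

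The array as a whole bears on these genes in a few ways. An adjusted p under 0.05 in limma was reached by 141 of 18193 genes (0.775%), by 251 without deleted replicate 1, and by 18 to 56 without any other single array. Casp8 stood at 10.53, 9.74 and 10.24 on control arrays against 9.27, 9.56 and 10.40 on deleted arrays (limma, adjusted p = 0.518), and the labels do not say whether its probe set lies in the deleted part. Control replicates 1 and 2 had a larger excess of the 3′ over the 5′ Gapdh control signal, a measure that grows with RNA breakdown, at 0.68 and 0.93 against 0.21 to 0.29 on the other 4 arrays. The 10 epithelial markers, among them Epcam, Vil1 and Krt20, had mean log2 levels of 12.57 to 12.67 on control arrays against 12.66 to 12.72 on deleted arrays. Of 9 enterocyte markers 1 rose, with mean levels of 12.37 to 12.51 and 12.71 to 12.79. All 5 measured Paneth cell markers fell (11.51 to 12.00 against 9.60 to 9.91), as did 4 of 8 goblet cell markers (12.17 to 12.26 against 11.41 to 11.54). Of 16 macrophage and dendritic cell markers 1 rose and 1 fell, with mean levels of 6.06 to 6.68 and 6.09 to 6.39. None of the 6 B and plasma cell markers passed, but all had negative differences (median −0.85), and every deleted array (5.56 to 6.00) lay below every control (6.12 to 7.41) in their mean level. None of the 8 endothelial markers passed, but deleted replicate 1 read 6.32, against 3.53 to 3.98 on the other arrays. The part of these shifts in the results below was not tested.

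None of the 34 genes passed the test across all genes (limma, smallest adjusted p = 0.106, n = 3 per group), where 0.775% of all genes did. With arrays weighted by their scatter around the group means, Ulk2, Gabarapl1, Sqstm1 and Npc1 passed, all with positive differences, and so did 7.73% of all genes. The largest weight, 2.97, went to control replicate 1, whose Gapdh excess was 0.68. At an unadjusted p under 0.05 there were 9, all higher in the deleted cells, where 8.12% of all genes were higher and 8.53% lower. The difference was positive in 27 of the 34, against 53.9% of all genes and 48.2% of the 9097 genes at or above the median level. In bulk RNA, fewer cells of a type and less RNA per cell cannot be told apart, and this holds for every value here. In 11 genes all 3 deleted arrays lay above all 3 controls, and in 1, Hexa, all lay below. Over all genes the shares were 11.5% higher and 11.2% lower, and among those 9097 genes 14.5% and 16.6%. The counts by step below rest on few genes each and are to be read against these shares. The 11 comprised 9 of the 24 autophagosome genes (37.5%) and 2 of the 9 lysosome genes (22.2%). The median log2 difference, deleted minus control, was 0.17 for the autophagosome genes, 0.11 for the lysosome genes and 0.022 for all genes. Relative to each gene's control mean, the autophagosome genes averaged −0.0066, −0.016 and 0.023 in the controls, with 0.21, 0.13 and 0.22 in the deleted group. The median was 0.11 without control replicate 3. The lysosome genes averaged 0.012, −0.039 and 0.027, against 0.27, 0.16 and 0.14, and their median was 0.045 and 0.053 without control replicates 1 and 3 in turn. Over all genes the deleted arrays stood at 0.040, −0.0010 and 0.00027. On both lists, therefore, the mean of each deleted array lay above that of each control array.

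**Figure D1:**
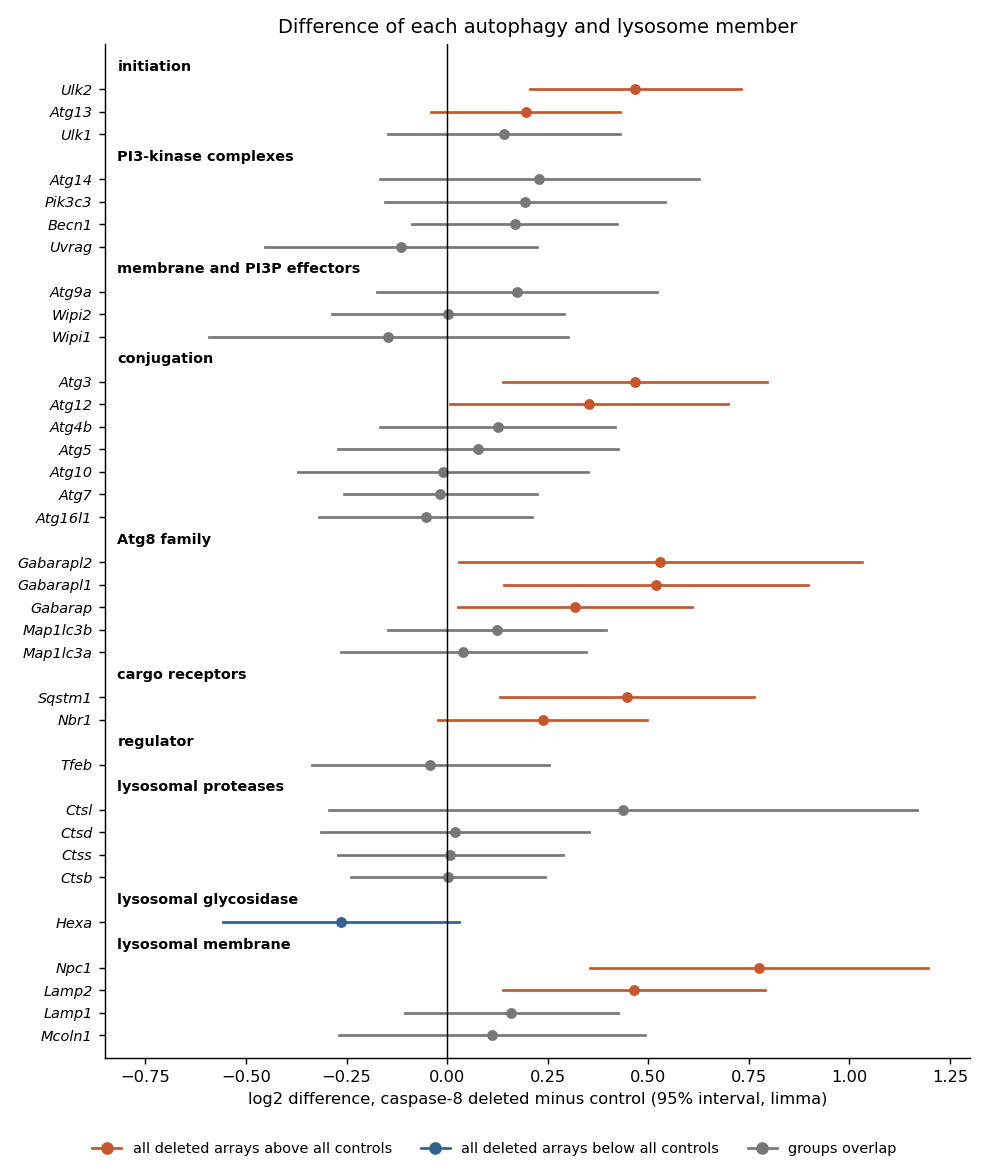
Log2 difference (deleted minus control, x axis) of each of the 34 genes, ordered by step, with its 95% limma interval; 3 arrays per group. The 11 genes whose deleted arrays all lie above the controls are in orange, Hexa alone lies below, and no gene passed the adjusted threshold.

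The 3 measured genes of the set that belong to the initiating kinase complex all had positive differences. Other genes of the complex are counted in a wider list below. Ulk2, a kinase of that complex, read 6.65, 6.66 and 6.83 on control arrays against 7.27, 7.15 and 7.13 on deleted arrays. These groups do not overlap, and the difference was 0.47 (SE 0.11, 95% interval 0.21 to 0.73, limma adjusted p = 0.113). Ulk2 is also the only gene with probe sets over 0.5 from the one used: its other 3 stood at 0.25, −0.068 and −0.11, and the mean over all 4 gave 0.13. On the first of these 3 the groups were apart, at a mean level of 6.27. The others were dim, at mean levels of 4.94 and 3.38, against 6.95 for the one used. Atg13, which holds the complex together, stood at 0.20 (7.11 ± 0.03 and 7.31 ± 0.03, SD, n = 3), with groups that do not overlap. Its other probe sets stood at 0.046 and −0.045 with overlapping groups, and the mean over all 3 gave 0.065. Their mean levels were 6.28 and 4.18, against 7.21 for the one used. Ulk1, the other kinase, stood at 0.14, with control replicate 2 above all 3 deleted arrays, and at 0.23 with groups apart by its second probe set.

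The 4 genes of the set that belong to the PI3-kinase complexes showed smaller differences, and by the probe sets used the groups overlapped in all 4. Becn1, which encodes Beclin 1, stood at 0.17, and at 0.29 by a second probe set whose deleted arrays all lay above the controls. Of its partners, the catalytic subunit gene Pik3c3 stood at 0.19 and Atg14, which directs the complex to forming autophagosomes, at 0.23. Uvrag, whose product takes the place of Atg14 in a complex acting later, stood at −0.11. The same held for Atg9a, the membrane protein of the vesicles that seed the autophagosome, at 0.17, and for Wipi2 and Wipi1, which bind PI3P, at 0.0024 and −0.15. Wipi1 had 6 probe sets. On 2 of them all deleted arrays lay below the controls, at −0.51 and −0.38, while the one used did not separate the groups, and none passed (limma over single-gene probe sets, smallest adjusted p = 0.114).

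Of the 7 conjugation genes of the set, 2 had deleted arrays above every control, as did 11.5% of all genes. Atg3, the E2-like enzyme that attaches Atg8 proteins to lipid, read 9.78, 9.45 and 9.92 on control arrays against 10.22, 10.16 and 10.16 on deleted arrays. Its difference was 0.47 (SE 0.14, limma adjusted p = 0.176), with control replicate 2 lowest. It was 0.26 against control replicate 3 alone, the control with the least Gapdh excess. A second, dimmer probe set (mean level 4.03, against 9.95) stood at 0.10, with overlapping groups. Atg12, the ubiquitin-like protein joined to Atg5, stood at 0.35 (adjusted p = 0.29 in limma), and all 3 of its probe sets had deleted arrays above every control. The dimmest of them had a mean of only 1.95, where the lowest value on any array was 1.13. For the remaining 5 the groups overlapped. Atg4b, the protease that trims Atg8 proteins, stood at 0.13 (0.19, with groups apart, and 0.024 by its other probe sets) and Atg5 at 0.076. The E1-like Atg7, the E2-like Atg10 and Atg16l1, which places the conjugation complex on the membrane, stood at −0.017, −0.011 and −0.053. The 95% intervals ran from −0.26 to 0.22 for Atg7 and from −0.32 to 0.21 for Atg16l1.

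All 5 genes of the Atg8 family had positive differences by the probe sets used. By these, the groups were apart in the 3 GABARAP genes and overlapped in both LC3 genes. Gabarapl1 read 6.88, 7.04 and 7.05 on control arrays against 7.84, 7.44 and 7.24 on deleted arrays (difference 0.52, SE 0.16, limma adjusted p = 0.186). Deleted replicate 1, the array with the highest endothelial and fibroblast marker levels, was its highest, and without that array the difference was 0.36. Its second probe set stood at 0.67. Gabarapl2 read 9.56, 8.996 and 9.84 against 9.92, 9.86 and 10.21 (0.53, SE 0.22, limma adjusted p = 0.275). Control replicate 3 lay only just below the lowest deleted array, and against it alone the difference was 0.15. Without control replicate 2, the lowest array, it was 0.29, and a second probe set stood at 0.17 with overlapping groups. Gabarap read 10.89, 10.77 and 11.13 against 11.24, 11.24 and 11.27 (0.32, SE 0.13, limma adjusted p = 0.265), and against control replicate 3 alone the difference was 0.12. The LC3 genes Map1lc3b and Map1lc3a stood at 0.12 and 0.040 by the probe sets used. Of the other Map1lc3b probe sets, 2 had all deleted arrays above the controls, at 0.44 and 0.42, and the last stood at −0.16. The second for Map1lc3a stood at 0.27. Whether the branches differ was not tested.

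Both cargo receptor genes measured within the set had deleted arrays above all controls. Of 9 other cargo receptor genes, described below, 2 lay above and 1 below. Sqstm1, which encodes p62, read 8.88, 9.32 and 9.03 on control arrays against 9.51, 9.54 and 9.51 on deleted arrays. The deleted arrays were close together and the controls spread, with a difference of 0.45 (SE 0.14, 95% interval 0.13 to 0.76, limma adjusted p = 0.18). Against control replicate 3 alone it was 0.49. A second, less bright probe set stood at 0.14, with overlapping groups. Nbr1, a related receptor, stood at 0.24 (10.35 ± 0.01 and 10.58 ± 0.12, SD, n = 3), and its second probe set at 0.44.

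**Figure D2:**
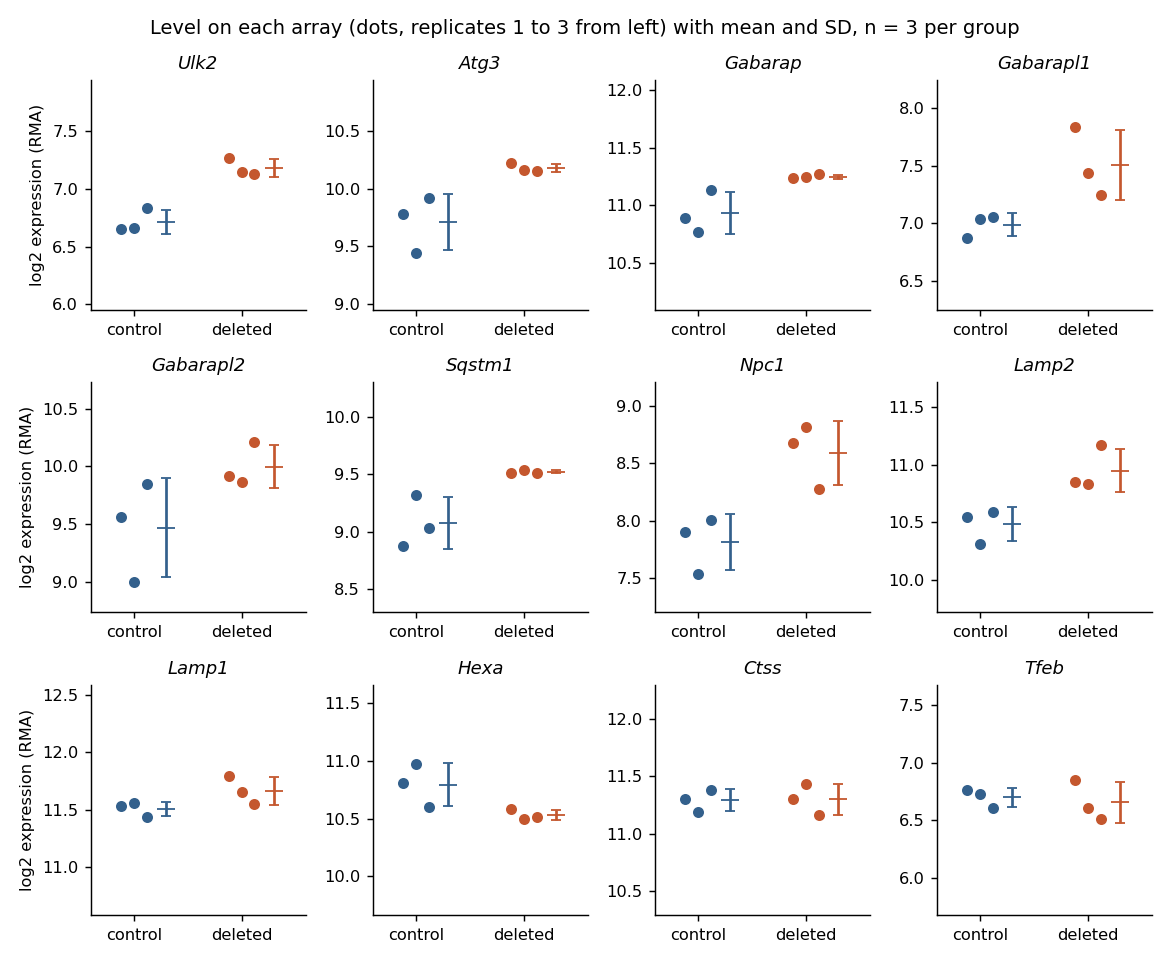
Log2 expression (y axis, each panel 2 log2 units high) on each array for 12 of the genes, controls in blue and deleted arrays in orange, with mean and SD (n = 3). In Ulk2, Atg3, Sqstm1, Gabarap, Gabarapl1, Gabarapl2, Npc1 and Lamp2 all deleted arrays lie above the controls, in Hexa below, and in Lamp1, Ctss and Tfeb the groups overlap.

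All 4 lysosomal membrane genes of the set had positive differences, and in 2 of them the groups did not overlap. Of 14 other membrane and transport genes, described below, 9 had positive and 5 negative differences. Npc1, whose product moves cholesterol out of the lysosome, had the largest difference of the 34 genes. It read 7.90, 7.54 and 8.01 on control arrays against 8.68, 8.82 and 8.28 on deleted arrays, a difference of 0.77 or 1.71-fold (SE 0.18, 95% interval 0.35 to 1.19, limma adjusted p = 0.106). The difference was 0.58 against control replicate 3 alone and 0.64 to 0.93 when single arrays were left out. Lamp2, a structural protein of the lysosomal membrane, read 10.55, 10.31 and 10.59 against 10.85, 10.83 and 11.17 (0.46, SE 0.14, limma adjusted p = 0.176). Its other probe sets stood at 0.72, 0.18 and 0.062, all with overlapping groups. Both the size of the difference and the separation of the groups thus depended on the probe set. Lamp1, its relative, read 11.53, 11.55 and 11.43 against 11.79, 11.66 and 11.55. These groups overlap, at a difference of 0.16 (SE 0.12, adjusted p = 0.521 in limma). Mcoln1, the calcium channel that signals to TFEB, stood at 0.11, and at 0.35 and −0.066 by its other probe sets.

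The 4 cathepsin genes of the set, which encode proteases of the lysosome, showed no separation of the groups. Ctsb read 10.94 ± 0.05 on control arrays against 10.94 ± 0.04 on deleted arrays (SD, n = 3), with a 95% interval of −0.24 to 0.24. Other Ctsb probe sets ran from −0.41 to 0.30. Ctsd stood at 0.020. Ctsl stood at 0.44 with the widest error of the set (SE 0.32), and at −0.053 against control replicate 3 alone. Without deleted replicate 1 it was 0.17. Ctss, which cuts the invariant chain of MHC class II and is abundant in antigen-presenting cells, read 11.30, 11.19 and 11.38 against 11.30, 11.43 and 11.16, a difference of 0.0081 (95% interval −0.27 to 0.29). The invariant chain gene Cd74 fell by 2.21 on the log2 scale (limma, adjusted p = 0.0258), and the MHC class II gene H2-Aa fell by 1.90 (adjusted p = 0.0107). Of the 16 macrophage and dendritic cell markers, 12 had negative and 4 positive differences (median −0.13). Mrc1 rose by 1.06, and Lyz2, whose probe set may also read the Paneth cell gene Lyz1, fell by 1.54 (limma, adjusted p = 0.00395). Hexa, a subunit gene of the hexosaminidase that degrades gangliosides, read 10.81, 10.97 and 10.60 on control arrays against 10.58, 10.50 and 10.51 on deleted arrays. Every deleted array lay below every control, at a difference of −0.26 (SE 0.13, limma adjusted p = 0.346). Control replicate 3 lay just above the highest deleted array, and against it alone the difference was −0.073.

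Tfeb read 6.76, 6.72 and 6.61 on control arrays against 6.85, 6.61 and 6.51 on deleted arrays, a difference of −0.041 (95% interval −0.34 to 0.25). TFEB binds the CLEAR element of lysosomal genes, built on the E-box core CACGTG. Promoters of 300 bases (250 before to 50 after the transcription start, RefSeq, GRCm38.p6) were listed for 27 of the 34 genes, and the core was searched in them. The core reads the same on both strands. It was found in 8 of the 27 (29.6%), against 10.2% of 14452 genes of the array with a promoter. The longer TCACGTG, which contains the core and was searched on both strands, was in 6 (22.2%) against 5.80%. By step, the core was in 4 of 7 lysosome genes (Ctsd, Ctsl, Lamp1 and Mcoln1) and 4 of 19 autophagosome genes (Atg3, Atg5, Atg7 and Atg14). The 8 genes with the core had a median difference of 0.14, as did the 19 without it (0.14), and of the 9 genes with a listed promoter and deleted arrays above all controls, only Atg3 held it. A match is a run of letters and not a shown binding site. The 4 promoters with more than 1 core are shown to let the spacing be compared, each 5′ to 3′ with the cores in capitals. They are Lamp1 (chr8:13158911-13159210, plus strand), Mcoln1 (chr8:3500269-3500568, plus strand), Ctsd (chr7:142387778-142388077, minus strand) and Atg3 (chr16:45158579-45158878, plus strand).
Lamp1: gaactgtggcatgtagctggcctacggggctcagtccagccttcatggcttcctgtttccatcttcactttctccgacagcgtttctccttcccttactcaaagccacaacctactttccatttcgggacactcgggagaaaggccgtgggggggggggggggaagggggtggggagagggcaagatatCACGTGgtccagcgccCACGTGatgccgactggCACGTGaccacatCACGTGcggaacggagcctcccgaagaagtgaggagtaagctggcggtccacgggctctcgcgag
Mcoln1: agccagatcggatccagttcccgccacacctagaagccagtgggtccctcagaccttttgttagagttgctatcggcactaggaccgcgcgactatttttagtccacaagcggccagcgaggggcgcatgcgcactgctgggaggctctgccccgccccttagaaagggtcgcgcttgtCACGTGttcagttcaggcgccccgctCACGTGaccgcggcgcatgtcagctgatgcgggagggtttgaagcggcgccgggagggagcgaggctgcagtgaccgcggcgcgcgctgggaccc
Ctsd: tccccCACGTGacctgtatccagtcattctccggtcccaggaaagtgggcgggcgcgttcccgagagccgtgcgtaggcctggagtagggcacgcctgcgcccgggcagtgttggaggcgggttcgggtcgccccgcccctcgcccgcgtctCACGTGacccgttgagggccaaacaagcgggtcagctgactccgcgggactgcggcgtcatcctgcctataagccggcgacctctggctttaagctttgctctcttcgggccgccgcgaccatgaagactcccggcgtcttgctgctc
Atg3: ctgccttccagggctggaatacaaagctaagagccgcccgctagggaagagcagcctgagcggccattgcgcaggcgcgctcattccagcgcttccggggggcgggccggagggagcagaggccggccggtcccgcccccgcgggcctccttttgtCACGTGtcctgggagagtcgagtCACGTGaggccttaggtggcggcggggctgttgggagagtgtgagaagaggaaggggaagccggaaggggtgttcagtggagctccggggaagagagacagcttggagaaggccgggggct
Lamp1 holds 4 cores in the last 61 bases before its start, and the pairs of Mcoln1 and Atg3 also lie within 100 bases of theirs. The differences of these 4 genes were 0.16, 0.11, 0.020 and 0.47 in the order shown.

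Probe sets within a gene gave a further reading of the same arrays. The 34 genes had 80 single-gene probe sets, 12 genes having only 1. None of the 80 passed (limma over 34945 single-gene probe sets, of which 0.398% passed). On 22 of the 80 all deleted arrays lay above the controls, against 11.0% of all single-gene probe sets. On 3 all lay below (Hexa and a pair for Wipi1). That share was 11.2% over all genes and was not computed over probe sets. Of the 46 probe sets that were not the brightest, 36 had the sign of the brightest one, and the like share over all genes was not computed. Only 2, both of Ulk2, lay over 0.5 from it. Probe sets of 1 gene share the RNA of the array and are no replicates.

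**Figure D3:**
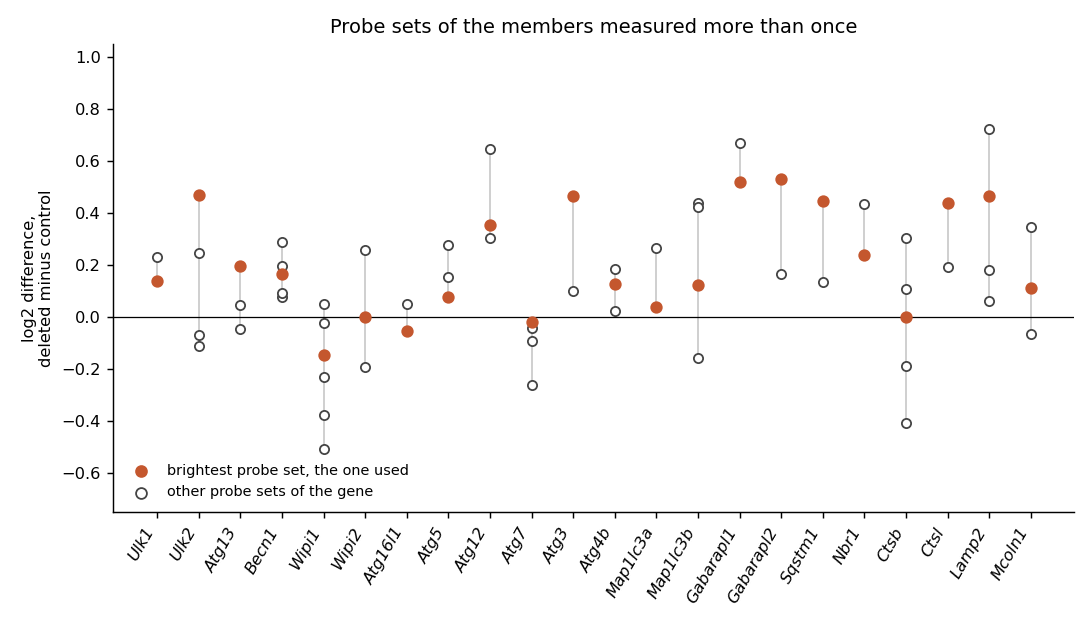
Log2 difference (deleted minus control, y axis) of every single-gene probe set of the 22 genes with more than 1, the brightest filled. Gabarapl1, Atg12, Nbr1 and Lamp2 are positive throughout, while Ulk2, Map1lc3b and Ctsb lie on both sides of 0.

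The wider pathway held 158 further measured genes in 9 lists, and none passed over all genes (0.775% of all genes did). At an unadjusted p under 0.05, 21 were higher and 11 lower, where 8.12% and 8.53% of all genes were. Groups were apart in 29 higher (18.4%) and 13 lower (8.23%), against 11.5% and 11.2% of all genes. Among the 9097 genes at or above the median level these shares were 14.5% and 16.6%. The pathway genes had a median level of 8.19, against 5.97 for all genes. The counts of each list that follow are to be read against the same shares, and several are near them. Among 22 other autophagosome genes the median difference was 0.27, and 8 had deleted arrays above all controls against 0 below. Tmem41b, a lipid scramblase needed for autophagosome formation, stood at 0.55 (limma, adjusted p = 0.0887), with 0.11 to 0.52 on its 5 other probe sets. Atg2a, which transfers lipid into the growing membrane, stood at 0.66 (adjusted p = 0.0944). Together with the 24 autophagosome genes above, 17 of 46 (37.0%) had deleted arrays above all controls and 0 below. Of 9 other cargo receptor genes 2 were above and 1 below, with Tollip at 0.30 (0.87 by its second probe set) and the mitophagy receptor Fundc1 at −0.24 (−0.060 and 0.15 by its others). Of 14 fusion genes 3 were above and 1 below (median 0.076). The latter was the SNARE gene Stx17 at −0.63, with all 4 probe sets negative, while its partner Snap29 stood at 0.43 (0.48 and 0.19 by its others).

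The lysosome lists were mixed. Of 12 other lysosomal protease genes 2 were above and 2 below (median 0.10). Ctsz, a cathepsin gene outside the 34, stood at 0.49, and its remaining probe sets at 0.58 and 0.52. On each of them all deleted arrays lay above the controls. Lgmn, the asparaginyl endopeptidase gene, stood at 0.54. The 26 other hydrolase genes had a median of −0.093, with 2 above and 3 below. Arsb, a sulfatase, stood at −0.58 (−0.14 and −0.18 by its other probe sets) and Glb1, the β-galactosidase, at −0.42. Of 14 membrane and transport genes 3 were above and 0 below (median 0.050), led by the sialic acid exporter Slc17a5 at 0.61 and Lmbrd1 of cobalamin export at 0.54 (0.19 and 0.23 by its others). Another list held 9 genes that make the mannose 6-phosphate tag of hydrolases or take part in sorting hydrolases. Of these 0 were above and 2 below, Gga2 at −0.58 and Sort1 at −0.49 (−0.087 and −0.30 by its others). Of 15 subunit genes of the V-ATPase, the proton pump that acidifies the lysosome, 3 were above and 0 below (median 0.092), with Atp6v1a at 0.41 (0.33 by its second) and Atp6v0e at 0.31. The last list held 37 genes: relatives of TFEB, its upstream kinase mTORC1, and regulators or factors linked to them. Of these, 6 were above and 4 below (median 0.048). Fnip2, a partner of folliculin, stood at 0.63 (limma, adjusted p = 0.0862), and the Rag GTPase gene Rragd, through which folliculin acts on TFEB, at 0.56 (0.41 and 0.20 by its others).

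**Figure D4:**
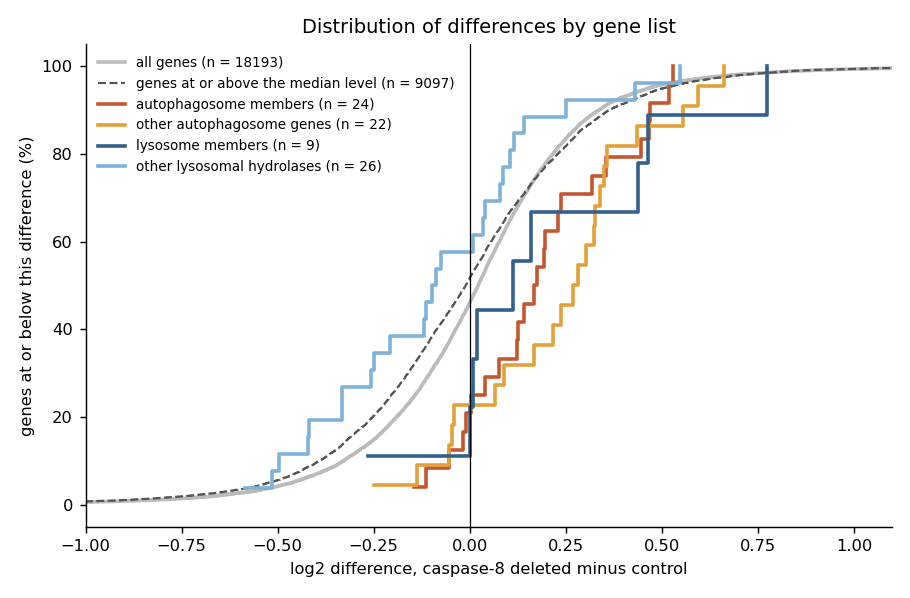
Share of genes (y axis, percent) at or below each log2 difference (deleted minus control, x axis) for 4 gene lists, all 18193 genes and the 9097 genes at or above the median level. The autophagosome lists lie to the right of all genes through most of their range, with medians of 0.17 and 0.27, and the other lysosomal hydrolases to the left, with a median of −0.093.

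The precision of 3 arrays per group bounds what could have been seen. The 95% interval of the difference lay within 0.5 of 0 on both sides for 19 of the 34 genes and within 1 for 31. The exceptions to the latter were Npc1, Ctsl and Gabarapl2. In the 11 genes whose deleted arrays all lay above the controls, leaving out any single array must keep the difference positive. The same holds against control replicate 3 alone, so the sign is no test there. Against that control 2 of the 11, Sqstm1 and Atg13, had larger differences than with all controls, and the others smaller ones. Gabarapl2 went from 0.53 to 0.15 and Gabarap from 0.32 to 0.12. With the Gapdh excess as a covariate 3 of the 11 had larger differences. A p that misses the threshold does not show that a gene was unaltered.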

How the data were processed

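The authors deposited log2 expression values made with RMA (robust multi-array average) from an Affymetrix 3′ array, per the submitters' processing notes, with settings and genome build not given in the sources used here. RMA draws dim signals together, so changes of dim genes are understated, and the table has no detection calls. Of 45101 probe sets, 34945 had 1 gene in the array's annotation, which may be out of date, 932 several and 9160 none, and only the single-gene probe sets were used. The brightest per gene was fitted over 18193 genes with limma 3.58.1 in R 4.3.3 (lmFit, eBayes, group as the only term, two-sided, Benjamini-Hochberg over all genes, threshold 0.05), and the fit was tested on simulated data. Tables and plots used Python 3.11.15, pandas 2.3.3, numpy 2.4.6 and matplotlib 3.10.9. Precision is limited by having 3 arrays a group, which the labels call biological replicates.

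The members, lists, tests and alternatives were chosen with earlier results of these data known. Described array by array are Tfeb, Ctss, the 6 autophagosome and 4 lysosome genes of smallest p, and any gene with probe sets over 0.5 apart from the one used. From each wider list the 2 genes of smallest p are named. Lists are described by counts and medians, with no set test.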

Additional observations from a re-analysis of the deposited data

How the results depend on the processing

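With array weights, which gave control replicate 1 and deleted replicate 2 weights of 2.97 and 2.36 and the other arrays 0.45 to 0.79, 4 of the 34 genes passed (Ulk2, Gabarapl1, Sqstm1 and Npc1, at adjusted p = 0.0248, 0.0391, 0.0231 and 0.0194 in limma), as did 1406 of all genes (7.73%). The autophagosome median was then 0.20. Under each of the other 15 alternatives 0 passed, of 33 measured genes among bright genes only, 28 without probe sets prone to cross-hybridisation and 34 otherwise, with the smallest adjusted p between 0.0545, among bright genes only, and 0.671, without control replicates 1 and 2. At an unadjusted p under 0.05 there were 4 with the Gapdh excess as a covariate, 2 without control replicates 1 and 2, and 6 to 9 when single arrays were left out. Leaving out single arrays, the autophagosome median ran from 0.11 (without control replicate 3) to 0.22 (without control replicate 2), and the lysosome median from 0.045 (without control replicate 1) to 0.16 (without deleted replicate 2). With the replicate number as a block (replicate block) 0 of the 34 and 113 of all genes passed. Same-numbered arrays had correlations of deviations of 0.077, 0.10 and −0.0074, so the numbers were not taken to pair the animals. With a variance trend 252 of all genes passed, among bright genes only 298, and 36 and 5 with the Gapdh covariate and without control replicates 1 and 2, against 141, and 18 to 251 when single arrays were left out. Some differences changed sign in some settings, among them Ctsl (0.44), Atg14 (0.23) and Wipi1 (−0.15), each without passing, and the cause was not tested. With the Gapdh excess as a covariate Atg14 −0.047, Atg10 0.0056, Tfeb 0.040, Ctsl −0.041 and Ctss −0.089. With array weights Wipi2 −0.13, Atg5 −0.0011, Map1lc3a −0.0071 and Ctsb −0.0096. Without control replicates 1 and 2 Atg14 −0.028, Atg10 0.029, Tfeb 0.048, Ctsl −0.053 and Ctss −0.081. With the mean over probe sets Ctsb −0.036. After median centring Atg7 0.0017 and Atg10 0.0083. Without probe sets prone to cross-hybridisation Mcoln1 −0.066. After a repeated quantile normalisation Atg7 0.044, Atg10 0.046, Map1lc3a −0.024, Tfeb 0.018, Ctsb −0.055, Ctsd −0.036 and Ctss −0.057. When single arrays were left out, the ranges of those that changed sign were Wipi2 −0.067 to 0.073, Atg16l1 −0.12 to 0.013, Atg10 −0.16 to 0.12, Map1lc3a −0.066 to 0.14, Ctsb −0.022 to 0.031, Wipi1 −0.36 to 0.022, Ctss −0.059 to 0.076, Atg5 −0.066 to 0.17, Tfeb −0.14 to 0.033, Ctsd −0.095 to 0.11 and Atg7 −0.040 to 0.012.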
